A study of Sus scrofa and Bos taurus with 31 samples.

Results

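The regions described here are the pig promoter regions that were open in all 8 tissues examined. Peaks of 16 pig libraries that shared at least 1 bp were merged into 533944 regions, and a tissue counted as open at a region only if the lists of its 2 animals each had a peak there. Of these regions, 16833 were open in all 8 tissues, and 10448 of them (62.1%) lay within 2 kb of the transcription start site (TSS) of a protein-coding transcript. These 10448 regions, called members below, made up 3.68% of the 284109 regions open in at least 1 tissue. They lay near 11338 of 20674 protein-coding genes (54.8%). Members were thus chosen by the measured presence of peaks in all 16 libraries and by the distance to a TSS, so these counts are a description and were not tested. The other 6385 regions open in all tissues passed the same requirement on peaks and lay farther from any protein-coding TSS, and they serve as the comparison.

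A promoter is the stretch around a TSS where the transcription machinery assembles, and an active promoter is kept free of nucleosomes. Most genes that every cell uses, such as those for ribosomes, splicing and energy metabolism, start in CpG islands, which are stretches rich in G, C and the dinucleotide CpG that usually stay unmethylated. Such promoters often lack a TATA box and instead carry sites for factors such as SP1, NF-Y, NRF1 and the ETS family. Genes confined to a cell type more often have promoters poor in CpG, and they are opened by factors of that cell type. Some promoters sit between a pair of genes that are transcribed away from each other, a head-to-head pair, and serve both.

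ATAC-seq, in which a transposase inserts adapters into accessible DNA, was performed on cryopreserved nuclei of liver, lung, spleen, skeletal muscle, adipose and 3 brain tissues, namely cerebral cortex, cerebellum and hypothalamus. Each tissue came from the same 2 pigs, P348 and P350, which were castrated male Yorkshire littermates that were sexually mature, so there was 1 library per tissue and animal. Both animals came from 1 litter, so the spread between them does not cover the spread between families, sexes or breeds. Tissues were measured in bulk, and more open cells and more open promoters per cell cannot be told apart. The lists held 99960 to 217308 peaks, and members took up 5.03 to 10.9% of the peaks of a library. Of 24 marker genes of the 8 tissues, 20 had a region open in their own tissue within 2 kb of a TSS, and the 4 that did not were PLIN1 for adipose, which was open in 4 other tissues, OTP for hypothalamus, ALB for liver and AGER for lung.

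The following bases are shown because they span the range from the members with the strongest peaks in their weakest library (HERC2, MNS1), through the members with the least variation between libraries (RAB8A, TPT1), to members that were among those with the largest difference between 1 tissue and the mean of the other 7 (ST3GAL4 in cerebellum, ADGRG1 in hypothalamus). Each is the 150 bases upstream of the TSS in Sscrofa11.1, read 5′ to 3′ on the strand of the gene. HERC2 is at chr15:56437967-56438116 and MNS1 at chr1:115471754-115471903, both on the plus strand. RAB8A is at chr2:61450352-61450501 on the minus strand and TPT1 at chr11:21929144-21929293 on the plus strand. ST3GAL4 is at chr9:53475559-53475708 and ADGRG1 at chr6:19536445-19536594, both on the plus strand. Capitals mark matches on either strand to the motifs listed further on, such as the CCAAT box and the GC box (GGGCGG).
HERC2: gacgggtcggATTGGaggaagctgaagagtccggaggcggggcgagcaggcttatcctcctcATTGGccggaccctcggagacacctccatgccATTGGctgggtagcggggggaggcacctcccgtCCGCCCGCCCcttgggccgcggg
MNS1: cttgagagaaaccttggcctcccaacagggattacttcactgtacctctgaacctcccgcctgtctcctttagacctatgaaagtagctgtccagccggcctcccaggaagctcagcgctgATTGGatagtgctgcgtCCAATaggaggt
RAB8A: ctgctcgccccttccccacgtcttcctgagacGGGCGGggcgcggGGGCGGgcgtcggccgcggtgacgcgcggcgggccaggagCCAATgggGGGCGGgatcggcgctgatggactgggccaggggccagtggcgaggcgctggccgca
TPT1: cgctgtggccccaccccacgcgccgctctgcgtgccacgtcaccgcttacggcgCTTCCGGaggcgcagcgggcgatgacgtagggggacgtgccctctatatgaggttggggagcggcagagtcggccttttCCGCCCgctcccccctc
ST3GAL4: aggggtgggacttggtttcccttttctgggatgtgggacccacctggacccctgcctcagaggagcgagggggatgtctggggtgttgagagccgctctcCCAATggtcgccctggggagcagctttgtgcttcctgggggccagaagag
ADGRG1: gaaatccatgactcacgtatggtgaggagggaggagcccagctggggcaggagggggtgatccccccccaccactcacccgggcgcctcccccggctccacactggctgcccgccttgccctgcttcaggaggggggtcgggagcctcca

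HERC2 held 13 CpG dinucleotides, 2 GC boxes and 3 CCAAT boxes in these bases, and RAB8A held 21 CpG and 3 GC boxes. MNS1, by contrast, held 4 CpG and 2 CCAAT boxes. ST3GAL4 held 3 CpG and ADGRG1 held 6 CpG, and ADGRG1 had no match to any of the motifs. In the same 150 bases upstream of all protein-coding TSSs, 39.8% of promoters held the GC box, 22.8% the CCAAT box, 6.08% the ETS sequence, 1.86% the NRF1 sequence and 1.36% the CRE. Among genes with a member these shares were 53.3%, 25.7%, 9.25%, 2.63% and 2.03%.

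The bases between the start sites of a head-to-head pair are shown for 4 of the 5 pairs with the highest fold in their weakest library, since 1 short stretch lies upstream of both genes. They are printed on the plus strand of Sscrofa11.1. ELP4 and IMMP1L flank chr2:29230093-29230171, TMEM167A and XRCC4 flank chr2:91358271-91358347, MRPL50 and ZNF189 flank chr1:243106832-243106910, and ASB15 and NDUFA5 flank chr18:23881795-23881871. The capitals mark the same motifs.
ELP4 and IMMP1L: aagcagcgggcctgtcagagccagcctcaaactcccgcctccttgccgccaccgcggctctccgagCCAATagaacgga
TMEM167A and XRCC4: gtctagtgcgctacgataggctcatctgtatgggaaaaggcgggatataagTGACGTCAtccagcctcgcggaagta
MRPL50 and ZNF189: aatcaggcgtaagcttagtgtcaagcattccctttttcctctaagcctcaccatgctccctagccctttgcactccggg
ASB15 and NDUFA5: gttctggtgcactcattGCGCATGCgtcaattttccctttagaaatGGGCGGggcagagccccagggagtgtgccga

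Each of these gaps was 77 or 79 bases long. The pair left out, RPGRIP1L and FTO, had 262 bases between its TSSs and no match to the motifs. The printed stretches shared no single motif. A CCAAT box lay between ELP4 and IMMP1L, a CRE (TGACGTCA) between TMEM167A and XRCC4, and an NRF1 sequence and a GC box between ASB15 and NDUFA5. No match lay between MRPL50 and ZNF189, where 2 CpG dinucleotides were found.

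Members mostly lay over a TSS, and the rule put all of them within 2 kb of one. A TSS lay inside 9843 members (94.2%), and the other 605 lay beside one. The merged region had a median width of 1782 bp, with quartiles of 1330 and 2401 bp, and the bases that had a peak in all 16 libraries at once numbered 511 at the median. In 545 members (5.22%) no single base was open in every library, so that these regions were joined from peaks that only partly overlapped. For the 8450 1-gene members with a shared stretch, the middle of the longest such stretch lay 25 bp downstream of the TSS at the median, with its upstream end at -224 bp and its downstream end at 299 bp. The TSS used was the one nearest to the stretch, and the middle was within 500 bp of it in 86.6% of these members.

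**Figure D1:**
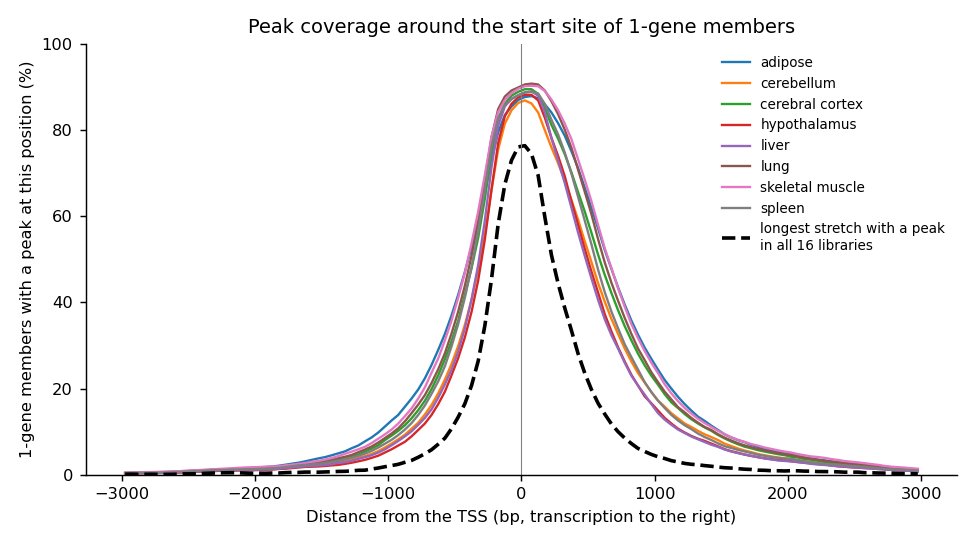
Share of 8450 1-gene members with a peak (y axis, percent) at each distance from the TSS nearest to the shared stretch (x axis, bp), as the mean of both animals for each tissue, with the longest stretch open in all 16 libraries as a dashed line. All tissues peaked just downstream of the TSS, where between 86.9% (cerebellum) and 90.6% (lung) of members had a peak at 25 bp, and the shared stretch reached 76.4% there.

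The 8 tissues differed little at the TSS itself and more on the flanks. Small differences at the TSS were built in, since members with a stretch open in all 16 libraries were aligned on its nearest TSS. At 525 bp downstream, 63.5% of these members had a peak in skeletal muscle, 62.0% in adipose, 47.2% in hypothalamus and 45.6% in liver. At 525 bp upstream the order was similar, with 37.0% in adipose, 35.8% in skeletal muscle, 24.4% in liver and 23.1% in hypothalamus. The median number of peak bases in a member ranged accordingly from 860 in the cerebellum of P348 to 1288 in the adipose of P348.

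The fold of a peak, the ratio of its signal to the local background given by the peak caller, averaged over the peak, was used as the level of a member in a library. Where a library had several peaks in a member, the highest was taken. The median over members ran from 3.77 in the adipose of P348 and 3.96 in that of P350 to 6.36 in the liver of P350 and 7.16 in that of P348. Adipose therefore had the weakest member peaks in both animals and liver the strongest. The cerebellum differed most between animals, with medians of 4.02 in P348 and 4.84 in P350. Averaged over tissues, the difference between P350 and P348 was within the spread between tissues (log2 difference -0.00257 ± 0.16 SD, 8 tissues, exact sign-flip permutation test, two-sided p = 0.977). So was that between the 3 brain tissues and the other 5 (log2 difference -0.06, exact permutation test over 56 choices, two-sided p = 0.821). The median fold of all peaks of a library, promoter or not, ranged from 2.72 to 3.98, and what depth or library quality adds to the order of the tissues was not tested.

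**Figure D2:**
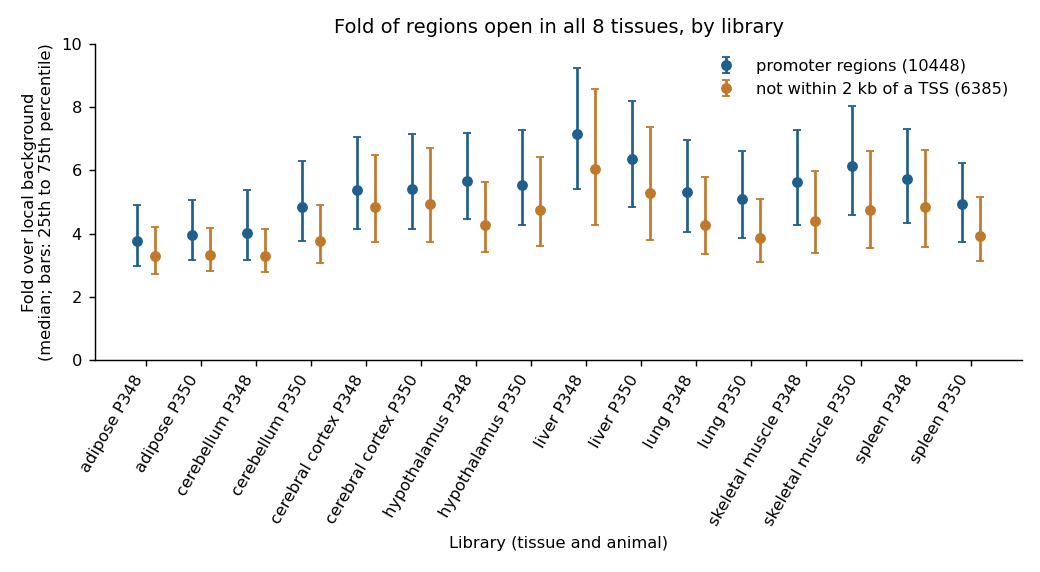
Fold over local background (y axis, linear) of the regions open in all 8 tissues in each of the 16 libraries (x axis), as the median (points) with the quartiles (bars), for the 10448 promoter members and the 6385 regions away from a TSS. In every library the median of the promoter members is the higher one, and adipose is lowest and liver highest.

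Members were stronger than the other regions open in all tissues in each of the 8 tissues. The median fold, averaged over animals, was 6.75 against 5.64 in liver, 5.88 against 4.58 in skeletal muscle, 5.61 against 4.51 in hypothalamus and 5.39 against 4.88 in cerebral cortex. In spleen it was 5.32 against 4.35, in lung 5.20 against 4.07, in cerebellum 4.41 against 3.52 and in adipose 3.87 against 3.31. The log2 difference was 0.28 ± 0.07 (SD, 8 tissues, ratio 1.22, higher in 8 of 8 tissues, exact sign-flip permutation test, two-sided p = 0.00781, the smallest possible, 0.0137 after Benjamini-Hochberg adjustment over 7 tests). The 8 tissues share the same regions and animals, so this p measures only how the difference recurs across tissues. The call was lost after peaks were limited to q-values below 0.0001, where the difference was 0.0291 (6 of 8 tissues, exact p = 0.289). Members also had more peak bases, by a ratio of 1.34 (log2 difference 0.42 ± 0.11, 8 of 8 tissues, exact p = 0.00781), and by 1.47 with the stricter q-value. The SD of the 8 tissue means on the log2 scale was 0.208 at the median for members and 0.287 for the other regions, and the SD between the animals of a tissue was 0.143 and 0.184. These SDs were not tested.

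Within a member, the highest fold was 2.17 times the lowest at the median. The weakest of the 16 libraries gave a median fold of 3.32, and 1444 members (13.8%) had a fold of at least 5 in every library. The 8 members with the highest fold in their weakest library, among those with a named gene, included genes of protein turnover, genome maintenance and cilia or centrosomes. HERC2, a very large ubiquitin ligase, ranged from 10.9 in the adipose of P348 to 15.7 in the cerebral cortex of P350. MNS1, known for its part in sperm flagella and motile cilia, ranged from 10.6 in the adipose of P350 to 19.0 in the skeletal muscle of P350, although none of the tissues is testis. HSPA13, a chaperone of the HSP70 family, had folds between 10.2 and 14.2. PNPT1, which encodes a mitochondrial RNA-processing enzyme, was 9.55 and 9.56 in adipose and 19.2 and 18.9 in liver, a pair of values in each tissue that lay close together. The median of all members was also lowest in adipose and highest in liver. After each library was centred on its median, PNPT1 was not called as varying between tissues (limma moderated F test, adjusted p = 0.115). OTUD6B, a deubiquitinase, CEP128, a centrosomal protein, and the pairs ELP4 with IMMP1L and TMEM167A with XRCC4 completed the set. These 8 regions were narrow, from 651 to 1162 bp.

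The members with the least variation, after each library was centred on its median, were those of RAB8A, ZFP36L2, INIP, TPT1 and SLC25A38. RAB8A, a small GTPase of vesicle transport, had an SD of 0.056 on the log2 scale over 16 libraries. Its fold nevertheless ran from 5.26 and 5.49 in adipose to 10.6 and 9.13 in liver, the tissues where the median of all members was also lowest and highest. TPT1, which encodes an abundant and widely expressed protein, ran from 3.63 in the adipose of P350 to 6.52 in the liver of P348. ZFP36L2, an RNA-binding protein that promotes mRNA decay, was low and flat, at 2.50 to 4.15.

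At the other end, 83 members had a fold under 2 in at least 1 library. NLE1, a factor of ribosome assembly, had folds of 1.69 and 1.77 in skeletal muscle and of 7.88 and 6.28 in liver, and skeletal muscle was apart from every other library. UCN, which encodes the peptide urocortin, was also lowest in skeletal muscle, at 1.80 and 1.78 against 2.44 to 3.64 elsewhere. MSC, a transcription factor gene of muscle precursors and lymphocytes, was lowest there too, at 1.81 and 2.23 against 2.59 to 3.76. IQSEC1 was lowest in adipose, at 1.75 and 1.94.

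Of the 10448 members, 3 were on the mitochondrial genome, which is not packed into nucleosomes, so that a peak there does not report open chromatin. One of them spanned 9268 bp and 11 genes including ATP6 and was the widest member, with folds of 1.66 to 2.21. The widest nuclear members with a named gene were those of MAPK8IP1 (8794 bp), DUSP1 (8271 bp), ULBP1 (7984 bp) and IRF2BP2 (7596 bp). They were wide without being strong, with median folds of 2.93 to 3.67. DUSP1, a phosphatase of MAP kinases induced by many stimuli, was highest in hypothalamus, at 5.73 and 5.06. MAPK8IP1 and ULBP1 had no base open in all 16 libraries.

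The DNA of the members was rich in CpG. The 300 bases around the middle of the shared stretch had a median GC content of 68.3% and an observed over expected CpG ratio of 0.846, against 58.0% and 0.404 in the 6384 other all-tissue regions with sequence. By composition (at least 50% GC and a ratio of at least 0.6), 9152 members (87.6%) lay over a CpG island, against 1834 (28.7%) of the other regions. The same held when promoters were taken gene by gene, from 250 bases before to 50 bases after the TSS. Of 11337 genes with a member, 71.8% started in a CpG island, against 30.7% of 6442 genes open in 1 to 7 tissues and 6.44% of 2886 genes open in none. Members over a CpG island had higher folds than the 1296 others in 8 of 8 tissues, by a ratio of 1.22 (log2 difference 0.29 ± 0.05 SD, exact sign-flip permutation test, two-sided p = 0.00781, adjusted 0.0137), and by 1.07 with peaks of q-value under 0.0001 (log2 difference 0.10, exact p = 0.00781). The ratio was largest in skeletal muscle, 6.01 against 4.72, and smallest in cerebral cortex, 5.47 against 4.74.

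The motifs searched, on both strands, were the NRF1 sequence GCATGCGC, the ETS sequence CCGGAAG, the GC box GGGCGG, the CCAAT box CCAAT, the CRE TGACGTCA, the YY1 sequence AAGATGGCG, the ZNF143 sequence ACTACAA, the E-box CACGTG and the TATA box TATAAA. In the 300 bases at the TSS the GC box was held by 66.3% of genes with a member, 49.8% of all protein-coding genes and 9.94% of genes open in no tissue. The ETS sequence was held by 16.1%, 10.7% and 1.35% of them, and the NRF1 sequence by 4.28%, 2.97% and 0.243%. The CCAAT box differed far less, with 36.9%, 35.4% and 40.1%. The TATA box had the opposite order, with 6.88% of genes with a member, 11.5% of all and 25.4% of genes open in no tissue. A match is a string of letters and was not tested for binding. GC-rich motifs such as the GC box, which contains CpG itself, are more frequent in GC-rich sequence.

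**Figure D3:**
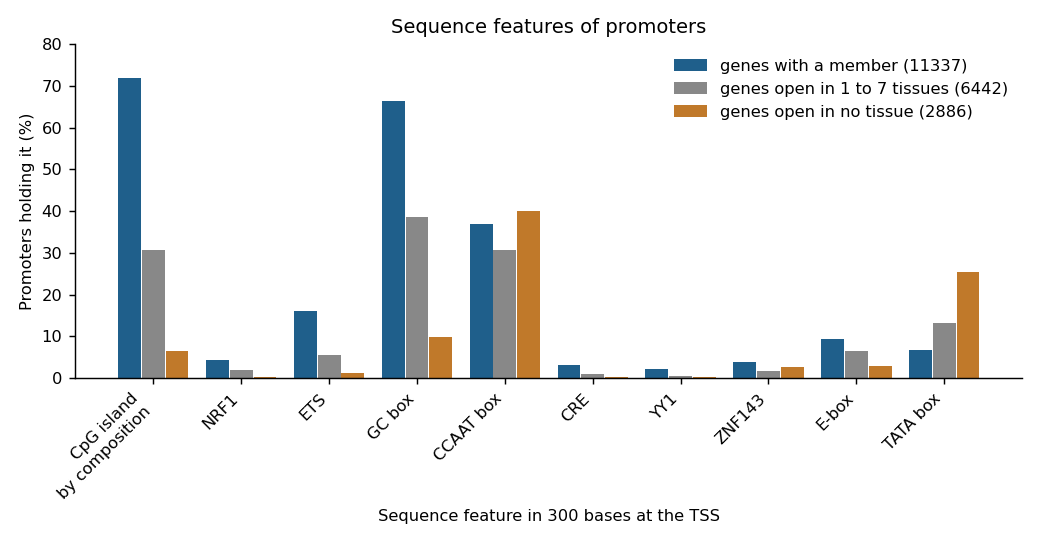
Share of promoters (y axis, percent, 300 bases at the TSS) that qualify as a CpG island by composition or hold a motif (x axis), for 11337 genes with a member, 6442 genes open in 1 to 7 tissues and 2886 genes open in no tissue. CpG island, GC box and ETS fall from the first group to the last, and the TATA box rises from 6.88 to 25.4%.

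Among the members themselves, the 300 bases at the shared stretch held the ETS sequence in 1777 and the CCAAT box in 3236. Median folds over 16 libraries were 6.13 with the ETS sequence and 5.11 without it, 6.18 with the CCAAT box and 4.96 without it, and 6.55 with the ZNF143 sequence (307 members) and 5.25 without it. The 7720 members with a GC box had a median of 5.32 against 5.13, and the 306 with a TATA box 4.99 against 5.29. These are descriptions, and the differences were not tested.

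Head-to-head pairs were counted as protein-coding genes transcribed away from each other with TSSs at most 1000 bp apart. The annotation held 1220 such pairs, and both genes of 1063 of them (87.1%) shared a member. The share did not fall with the gap, from 87.3% of 598 pairs with a gap under 100 bp to 88.1% of 101 pairs with a gap of 500 to 1000 bp. A flat share is built in, since a member counts for every gene with a TSS within 2 kb, whatever the gap. Of 2421 genes in a pair, 2133 (88.1%) had a member, against 9205 of 18253 genes in no pair (50.4%). A gene in a pair can count through the member of its partner, which can raise its share. In 810 of the shared members (76.2% of 1063) the longest stretch open in all 16 libraries held both TSSs. Counted by member, 1069 (10.2%) lay at a pair, 8958 (85.7%) at 1 gene and 421 at several genes that formed no pair. A further 570 of the 1-gene members (6.36%) had a long non-coding RNA starting in the opposite direction within 1000 bp, and their median fold of 5.73 was close to the 5.79 of pair members and above the 5.23 of all 1-gene members.

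Pair members had higher folds than 1-gene members in 8 of 8 tissues, by a ratio of 1.1 (log2 difference 0.14 ± 0.0304 SD, exact sign-flip permutation test, two-sided p = 0.00781, adjusted 0.0137). The medians were 7.23 against 6.73 in liver, 6.06 against 5.33 in cerebral cortex and 4.25 against 3.83 in adipose. With peaks of q-value under 0.0001 the difference was lost and its sign turned (-0.00535, 3 of 8 tissues higher, exact p = 0.594). The number of peak bases did not differ beyond the spread between tissues (log2 difference 0.000742 ± 0.0463 SD, exact p = 0.969), and with the stricter q-value it was higher at pairs by a ratio of 1.06 (log2 difference 0.08, exact p = 0.00781). A CpG island lay under 962 of 1069 pair members and 7817 of 8958 1-gene members (87.3%).

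The 5 pairs with the highest fold in their weakest library joined genes of different function. TMEM167A shared its promoter with XRCC4, a factor of DNA double-strand break repair, at folds of 9.67 to 16. ELP4, a subunit of the Elongator complex, shared one with IMMP1L, a peptidase of the mitochondrial inner membrane, at 9.84 to 14. MRPL50, a protein of the mitochondrial ribosome, faced the zinc finger gene ZNF189 at 9.11 to 13.5. RPGRIP1L, a protein of the base of the cilium, faced FTO, an RNA demethylase, at 9.07 to 14.8. NDUFA5, a subunit of respiratory complex I, faced ASB15 at 8.97 to 17.1.

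Among gene lists, families known for broad use mostly had a member. The lists were made by gene name, so not every gene on them need be used by every cell. Against 54.8% of all protein-coding genes, the share was 97.2% of 36 aminoacyl-tRNA synthetases, 96.9% of 64 DNA replication and repair genes, 95.3% of 64 spliceosome and SR protein genes, 94.4% of 54 subunit genes of mitochondrial complex I and ATP synthase and 93.3% of 75 mitochondrial ribosomal proteins. It was 91.8% of 85 cytosolic ribosomal proteins, 91.0% of 67 genes of RNA polymerase II, Mediator and general factors, and 87.2% of 39 proteasome subunits. Vesicle coats (96.2% of 26), translation initiation factors (95.1% of 41), autophagy genes (90.5% of 21) and cytosolic chaperones (84% of 25) were in the same range. The lowest shares among such lists were 75% of 32 ubiquitin-conjugating enzymes and 71.4% of 21 vacuolar ATPase subunits. Of 6 vacuolar ATPase genes without a member, ATP6V1B1 was open in 1 tissue at its best region, ATP6V0A4 in 2, ATP6V0D2 and ATP6V1G3 in 3, ATP6V1A in 5 and ATP6V1C2 in 7. Families of known restricted use had fewer. The share was 38.3% of 81 potassium channels, 33.8% of 68 interleukins and their receptors, 30.2% of 43 collagens, 25% of 36 cytochromes P450 and 2.86% of 35 keratins. It was 31.4% of 35 GABA and glutamate receptors. Of 36 HOX genes 4 had a member, and of 16 taste receptor genes 1 had one. Solute carriers, a family of mixed use, had 200 of 354 genes with a member (56.5%), and zinc finger genes named ZNF had 196 of 256 (76.6%).

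**Figure D4:**
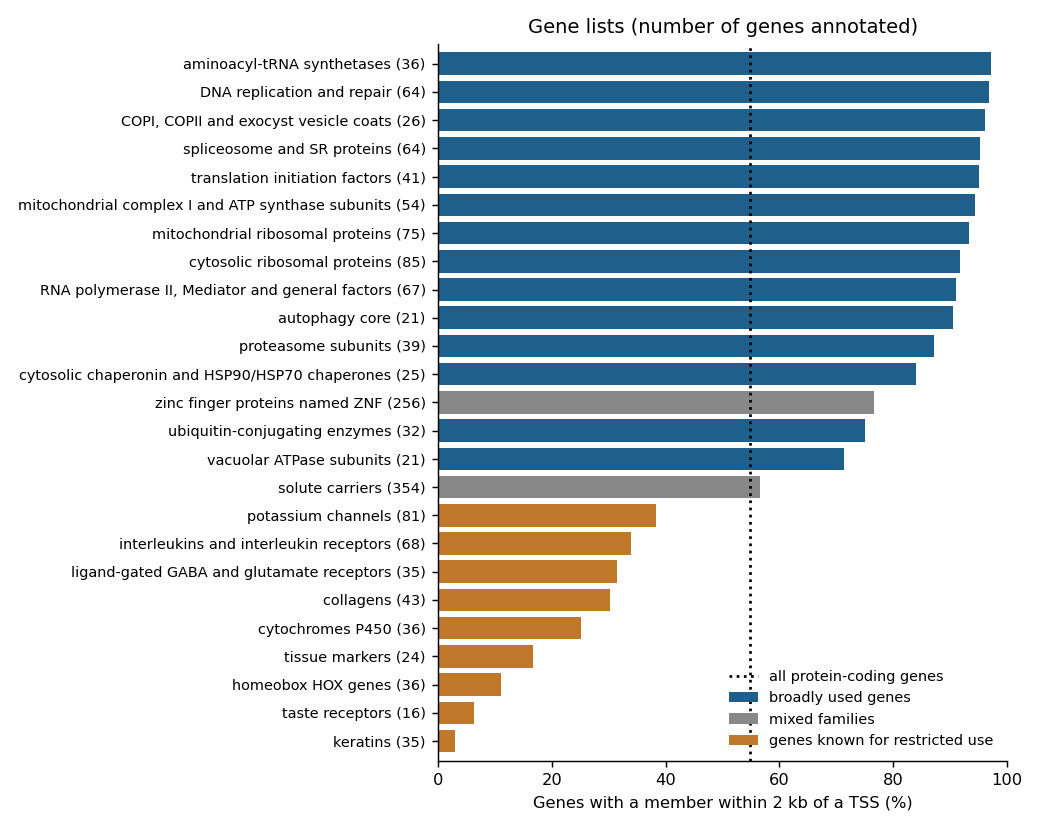
Share of the genes of each list (y axis, with the number of genes annotated) that have a member within 2 kb of a TSS (x axis, percent), by kind of list, with the share of all protein-coding genes, 54.8%, as a dotted line. Lists of broadly used genes lie between 71.4 and 97.2%, and the plotted families known for restricted use between 2.86 and 38.3%, with the list of 1 olfactory receptor gene, which had no member, not drawn.

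The lists also differed in level. Median folds of their members over 16 libraries were 6.86 for DNA replication and repair, 6.77 for the proteasome and 6.61 for aminoacyl-tRNA synthetases, against 5.28 for all members. They were 3.46 for potassium channels, 3.65 for HOX genes and 3.90 for collagens. Within lists, PSMD14, a deubiquitinase of the proteasome lid, had folds from 6.96 in the cerebellum of P348 to 12.3 in the liver of P348. MED30 of Mediator ran from 7.61 to 13 and HNRNPC, which binds nascent transcripts, from 6.88 to 13. RPSA of the small ribosomal subunit ran from 7.52 in the adipose of P348 to 15 in the cerebral cortex of P350. Some genes of restricted families shared their member with a neighbour. COL5A2, a fibrillar collagen gene, shared its member with WDR75 (4.85 to 8.39), CYP39A1 with SLC25A27 (8.62 to 13.2), and the taste receptor gene TAS1R1 with NOL9 (2.73 to 7.66). KRT80, the 1 keratin with a member, had a region of 5537 bp with no base open in all 16 libraries.

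Although every member was open in every tissue, its level was not the same across them. A moderated F test (limma) on log2 fold, with each library centred on its median over all 16833 regions, called 6460 members (61.8%) as varying between tissues at an adjusted p below 0.05, against 68.5% of all 16833 regions. Members over a CpG island were called in 60.1% of cases and the others in 73.8%, pair members in 55.7% and 1-gene members in 62.8%. Of list members, 41.0% varied for RNA polymerase II, Mediator and general factors, 42.9% for the proteasome, 59.5% for cytosolic ribosomal proteins and 87.5% for potassium channels. Members called as varying had a CpG island in 85.2% of cases and those not called in 91.5%.

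Each tissue was then set against the mean of the other 7 in the same limma fit. In skeletal muscle 1654 members (15.8%) were higher and 1656 (15.8%) lower, against 16.7% and 20.1% of all regions. In adipose 1445 members (13.8%) were higher and 1186 (11.4%) lower, against 15.7% and 9.86% of all regions. In cerebellum 1410 (13.5%) were higher and 536 (5.13%) lower, against 13.1% and 6.36%. In liver 659 (6.31%) were higher and 1553 (14.9%) lower, against 9.45% and 18.2%. In spleen 410 (3.92%) were higher and 765 (7.32%) lower, against 5.97% and 9.09%. In cerebral cortex 477 (4.57%) were higher and 636 (6.09%) lower, against 7.71% and 5.41%. In hypothalamus 420 (4.02%) were higher and 318 (3.04%) lower, against 4.76% and 4.24%. Lung had the fewest, with 143 (1.37%) higher and 59 (0.565%) lower, against 1.62% and 1.28%. Members higher in 1 tissue were typically higher by a modest amount, with a median log2 difference of 0.397 in adipose to 0.501 in lung. A difference of at least 1 on the log2 scale was reached by 41 members in skeletal muscle, 15 in cerebellum, 7 in cerebral cortex, 5 in hypothalamus and 1 in each of the other tissues. This count was not made over all regions. The 1 in adipose was a region of the mitochondrial genome, where a peak does not report open chromatin.

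These directions are relative to the median region of each library and depend on that centring. Without it, 12 members were higher and 7504 lower in adipose, 159 and 3213 in cerebellum, 6365 and 69 in liver, 2826 and 604 in skeletal muscle, 615 and 73 in cerebral cortex, 537 and 67 in hypothalamus, 16 and 16 in lung, and 223 and 353 in spleen. Higher and lower calls came to 0.115 and 71.8% of members in adipose, against 0.576 and 66.1% of all regions. They came to 1.52 and 30.8% in cerebellum, against 1.95 and 32.6%, and to 60.9 and 0.66% in liver, against 58.1 and 1.38%. In skeletal muscle they came to 27 and 5.78%, against 26.2 and 8.35%, and in cerebral cortex to 5.89 and 0.699%, against 9.21 and 0.79%. In hypothalamus they came to 5.14 and 0.641%, against 5.77 and 0.826%, and in spleen to 2.13 and 3.38%, against 3.51 and 4.57%. In lung they came to 0.153 and 0.153%, against 0.261 and 0.356%. With quantile normalization the share of higher calls among members moved from 72.5 to 59.2% in cerebellum and from 29.8 to 44.1% in liver. Over all regions it moved likewise, from 67.2 to 52% in cerebellum and from 34.1 to 51% in liver. In the main fit, with centring, at least 1 tissue differed from the other 7 in 7070 members (67.7%), against 73.2% of all regions. In that fit at least 1 was higher in 5306 (50.8%), against 57.5%, and at least 1 lower in 5440 (52.1%), against 58.0%.

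Both libraries of a tissue lay above the other 14 on the centred scale in 2993 members (28.6%), against 31.1% of all regions. The tissue was skeletal muscle in 852 members (8.15%, against 8.44% of all regions), adipose in 680 (6.51%, against 6.74%) and cerebellum in 548 (5.25%, against 4.43%). It was cerebral cortex in 191 (1.83%, against 2.95%), spleen in 188 (1.80%, against 2.31%) and liver in 187 (1.79%, against 3.12%). It was lung in 176 (1.68%, against 1.43%) and hypothalamus in 171 (1.64%, against 1.65%). The shares of the members were thus close to those of all regions, with cerebral cortex and liver furthest below them.

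Counts by gene list are given for 3 lists picked after their values were seen, each beside the share of all regions called in the same direction. In skeletal muscle 53 of 205 members at ZNF genes were higher, where 16.7% of all regions were, and 14 were lower, against 20.1%. In cerebellum 15 of 62 members at spliceosome genes were higher, where 13.1% of all regions were, and 3 were lower, against 6.36%. In adipose 12 of 32 members at potassium channel genes were higher, where 15.7% of all regions were, and 2 were lower, against 9.86%. No list was tested against other members.

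The strongest single differences were in skeletal muscle. SULF1, a sulfatase that trims heparan sulfate outside the cell, had folds of 15.5 and 15.7 in skeletal muscle, 8.71 and 6.13 in adipose, 8.20 and 8.10 in lung, and 2.86 to 5.08 in the other 5 tissues. The skeletal muscle libraries were apart from all others (log2 difference 1.57 ± 0.165 SE, limma adjusted p = 6.07e-06). The member shared by the septin gene SEPT11 and its neighbour SOWAHB had 10.3 and 10.5 in skeletal muscle and 2.40 to 5.18 elsewhere (1.54 ± 0.106 SE, limma adjusted p = 2.38e-07). With the mean over peaks weighted by length in place of the highest peak, the SEPT11 difference was 0.62 (limma adjusted p = 0.000405). In liver, LRRC34 had folds of 11.0 and 10.3 against 3.06 to 5.40 elsewhere (1.03 ± 0.134 SE, limma adjusted p = 0.00017). WNT7A, a secreted Wnt ligand, had 11.9 and 8.21 in liver against 2.37 to 6.26 elsewhere (1.00 ± 0.157 SE, limma adjusted p = 0.000584).

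In the brain, IDH2, the mitochondrial isocitrate dehydrogenase, had folds of 9.20 and 8.66 in hypothalamus against 2.62 to 5.06 elsewhere (log2 difference 1.14 ± 0.101 SE, limma adjusted p = 3.29e-05). ADGRG1, an adhesion receptor of neural progenitors and other cells, had 7.78 and 8.65 in hypothalamus, 6.15 and 7.05 in cerebral cortex and at most 4.46 elsewhere (1.3 ± 0.123 SE, limma adjusted p = 5.3e-05). BRWD1, a bromodomain protein, had 9.87 and 11 in cerebral cortex and 3.30 to 9.04 elsewhere, and the animals differed in hypothalamus, with 4.32 in P348 and 9.04 in P350. Its log2 difference in cerebral cortex was 1.17 with the highest peak and 0.26 with the length-weighted fold, where the call was lost (limma adjusted p = 0.102). GIGYF1, a factor of translational repression, had 8.48 and 8.91 in cerebral cortex against 2.60 to 6.95 elsewhere. In cerebellum the values were higher in P348. SOX12, a transcription factor gene, had 15.2 in P348 and 6.45 in P350 against 2.54 to 7.11 elsewhere, and its log2 difference of 1.34 was 0.61 with P350 alone and 2.07 with P348 alone. ST3GAL4, a sialyltransferase, had 9.40 and 5.61 against 2.31 to 6.27 elsewhere, with log2 differences of 1.95 and 1.11 for each animal alone.

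In spleen, TSC22D3, a glucocorticoid-induced leucine zipper gene, had folds of 10.4 and 8.16 against 3.45 to 7.53 elsewhere. Its log2 difference was 0.92 with the highest peak and 0.38 with the length-weighted fold, where the call was lost (limma adjusted p = 0.0732). SRRM3, a splicing factor, had 9.06 and 7.84 in spleen and similar values, 8.84 and 9.52, in liver, so it stood apart in spleen on the centred scale but not in fold. In lung, RTN4, which encodes the reticulon Nogo, had 10.8 and 11 against 3.82 to 9.61 elsewhere. QRFPR, a neuropeptide receptor, had 8.30 and 7.16 in lung and 8.03 and 6.13 in skeletal muscle. In adipose the largest difference was in a mitochondrial region near ND1 and ND2, 631 bp from the nearest protein-coding TSS. Its folds were 2.97 and 3.29 in adipose against 1.91 to 2.29 elsewhere. PRICKLE2, a planar cell polarity protein, had 4.85 and 5.29 in adipose and 5.31 and 5.55 in cerebral cortex. Of these 16 members, 11 had both libraries of their tissue above the other 14 in fold as well as on the centred scale. ADGRG1, GIGYF1, ST3GAL4 and TSC22D3 had no base open in all 16 libraries. Their regions were joined from peaks that only partly overlapped, and whether the peaks compared lie at the same position was not tested.

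**Figure D5:**
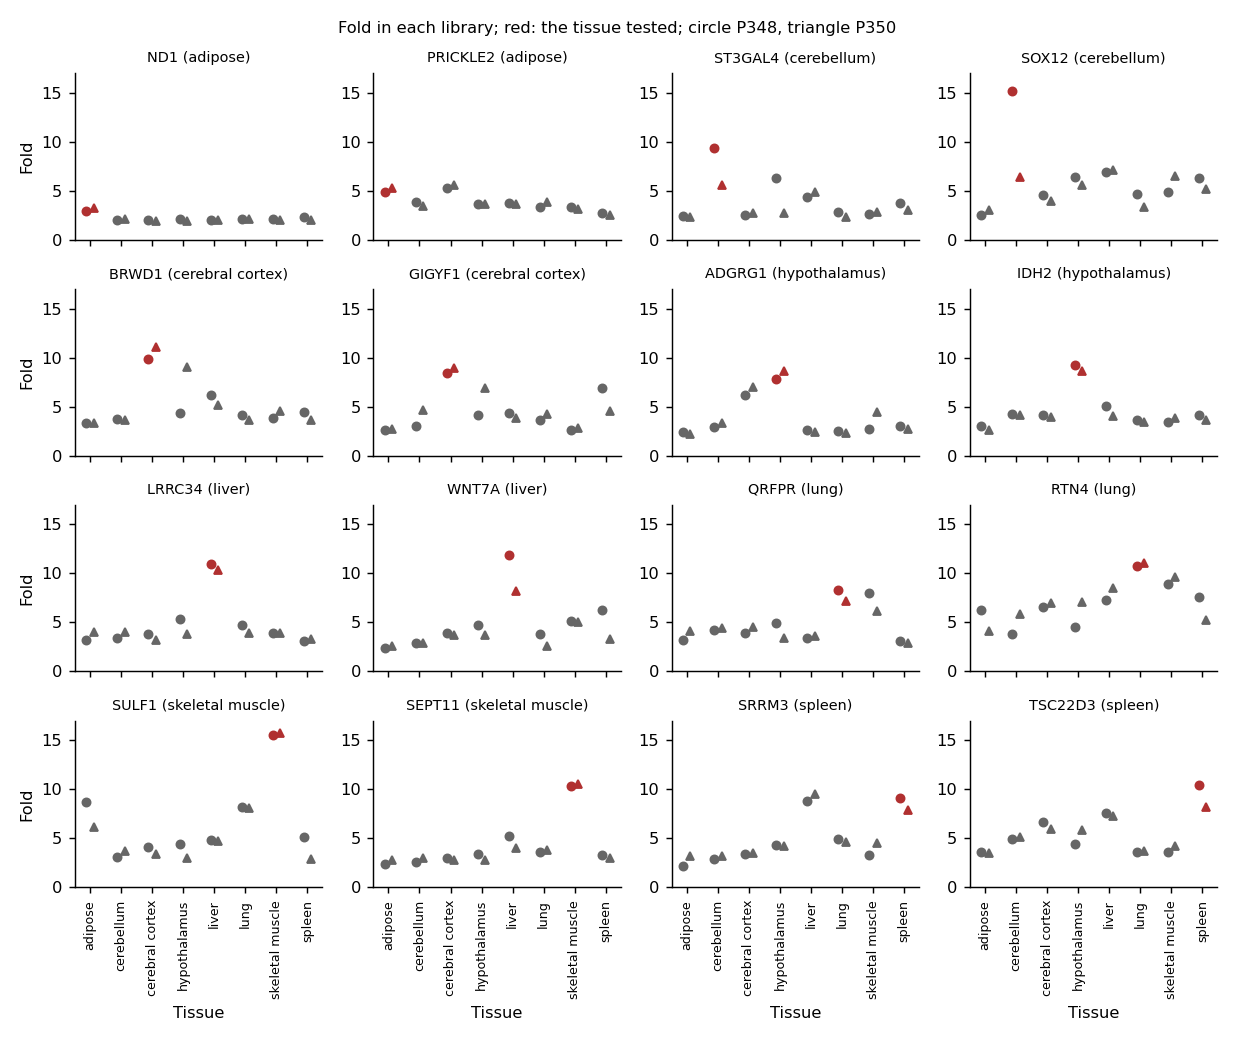
Fold in each library (y axis, not centred) by tissue (x axis) for the 2 members with the largest difference in each tissue, with the tissue tested in red, P348 as circles and P350 as triangles. The red points of SULF1, 15.5 and 15.7, and of SEPT11, 10.3 and 10.5, lie far above the rest, whereas those of PRICKLE2, ST3GAL4, SOX12, QRFPR and SRRM3 overlap with another tissue in fold.

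The 3 brain tissues together were higher than the other 5 in 1697 members (16.2%) and lower in 1313 (12.6%) (limma, adjusted p below 0.05), against 17.1% and 12.7% of all regions. Without centring, 930 (8.9%) were higher and 1251 (12%) lower, against 9.99% and 12.4% of all regions. These counts treat the libraries of each tissue as replicates. With the 8 tissue means as the unit, 1 member was called and 1069 (10.2%) had an unadjusted p under 0.05. With 1 animal at a time, 0 members were called, and 1077 without P348 and 888 without P350 had an unadjusted p under 0.05. Counts with tissue means or with 1 animal were not made over all regions.

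Marker genes of single tissues seldom had a member, 4 of 24 (16.7%), and a member at a marker was not strongest in that tissue. ACTN3, the alpha-actinin of fast muscle fibres, had a member shared with ZDHHC24 whose folds were lowest in skeletal muscle, at 3.31 and 3.40, and reached 12.6 in the cerebral cortex of P350. The member of SIM1, a hypothalamic transcription factor, had 2.96 and 3.31 in hypothalamus and 3.82 and 6.46 in skeletal muscle. That of TBR1, a transcription factor of cortical projection neurons, lay 1280 bp from a TSS and had 2.91 to 4.02 across libraries, with 3.26 and 3.35 in cerebral cortex.

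Near the limits of the definition, 115 members lay more than 1500 bp from the nearest TSS, and 110 all-tissue regions that were not members lay within 2500 bp of one. There were 2006 proximal regions open in 7 tissues, and 1668 of them (83.2%) had a peak in 15 of 16 libraries. The tissue missing was cerebellum in 984 (49.1%), skeletal muscle in 304, adipose in 287, spleen in 242, hypothalamus in 125, liver in 42, cerebral cortex in 20 and lung in 2. Their median fold over the libraries with a peak was 3.45, against 5.28 for members.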

How the data were processed

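Open chromatin was measured by ATAC-seq in 16 pig libraries, 8 tissues of 2 animals. Per the submitters' processing notes, Trim Galore 0.4.5, BWA 0.7.17, SAMtools 1.10 and Picard 2.18.17 were used. The authors called broad peaks with MACS2 at a q-value of 0.05 for each library separately on Sscrofa11.1, and a shift of read ends for ATAC-seq is not given in the sources used here. The deposited lists have 9 columns, with a score in column 5, the fold (the ratio of signal to local background) in column 7, and −log10 p-values and −log10 q-values in the last columns. Read counts are not part of these lists, and the number of reads behind a peak was not used here, so no counting interval is given, and a deeper library can have more and weaker peaks. Cattle lists were not used here.

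Peaks were merged with Python 3.11.15, numpy 2.4.6 and pandas 2.3.3, and TSSs of protein-coding transcripts were taken from RefSeq annotation release 106 (47135 positions). The study's own annotation was a different one. All 270 sequence names of the lists matched and 0 peaks ran past the end of a sequence. Log2 folds of all 16833 regions open in all 8 tissues were fitted with limma 3.58.1 in R 4.3.3 with no pseudocount, and p-values were adjusted over all regions of a contrast. Each tissue has 2 libraries, so p-values measure the spread between 2 littermates. Of 7 single values adjusted together, 6 were tested by exact sign-flip permutation over tissues and the brain value over 56 choices of tissues (scipy 1.17.1). The tissues share regions and 2 animals, so sign-flip p-values measure recurrence over tissues, not over independent regions or animals. The tests themselves ran on the measured values, after the limma and sign-flip code had been tested on simulated data with known answers. The samples are paired across tissues, since libraries that carry 1 animal name are from that animal. Animal differences correlated by -0.239 to 0.171 (median 0.00301) over 28 pairs of tissues. Over members, log2 folds correlated by 0.832 to 0.947 between animals of a tissue and by 0.537 to 0.904 between tissues.

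Named members were the 8 with the highest and the 5 with the lowest minimum fold, the 5 widest, the 5 with the smallest SD, the 2 most different in each tissue with both libraries above the other 14, the 5 strongest pairs, the strongest of each gene list, and marker genes, among members with a named gene. The members, gene lists and motifs were chosen with earlier results of these data known. The list of olfactory receptors held 1 named gene, which had no member. Some named genes are not reported here. Alternatives were q-value limits of 0.01 and 0.0001, merging within 500 bp, a TSS distance of 500 bp, autosomes only, a peak in either animal, leaving out an animal, no centring, quantile normalization, a length-weighted fold, log2(fold + 1) and the animal as a block. Nuclear members only, a base open in all libraries and tissue means as the unit were added after the data were seen. Sequences were read from the RefSeq assembly with pysam 0.24.0, and figures were drawn with matplotlib 3.10.9.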

Additional observations from a re-analysis of the deposited data

How the results depend on the processing

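The number of members was 5103 with peaks of q-value under 0.0001, and 8145 to 13202 under the other settings run. The stricter limit left fewer regions to test, 6273, and fewer calls, but not always a smaller share. There, 2954 members (57.9%, against 61.2% of all regions) varied between tissues. Adipose calls rose from 25.2 to 27.3% of members, and from 25.6 to 28.4% of all regions. The numbers higher and lower follow, with shares of members against those of all regions. Adipose had 777 and 616 (15.2 and 12.1%, against 16.6 and 11.8%), and cerebellum 532 and 274 (10.4 and 5.37%, against 10.1 and 6.22%). Cerebral cortex had 315 and 308 (6.17 and 6.04%, against 7.05 and 5.69%), and hypothalamus 148 and 153 (2.9 and 3%, against 3.08 and 3.03%). Liver had 291 and 480 (5.7 and 9.41%, against 7.83 and 10.8%), and skeletal muscle 755 and 783 (14.8 and 15.3%, against 14.8 and 17.2%). Spleen had 128 and 152 (2.51 and 2.98%, against 3.09 and 3.52%). The brain tissues together had 865 and 732 (17 and 14.3%, against 16.9 and 14.3%). Lung had 36 and 47 (0.705 and 0.921%, against 0.765 and 1.18%), so that lower calls outnumbered higher ones there, unlike in the main fit. The difference in fold between members and other regions was 0.0291 there, that between pair and 1-gene members -0.00535, that in peak bases between pair and 1-gene members 0.08, and that between animals 0.000525. The cause was not tested.

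Without centring, the numbers higher and lower were 12 and 7504 in adipose, 159 and 3213 in cerebellum, 6365 and 69 in liver, 16 and 16 in lung, 2826 and 604 in skeletal muscle, and 223 and 353 in spleen, with 73 lower in cerebral cortex, 67 lower in hypothalamus and 930 higher in the brain tissues together. The shares of members and of all regions are given above. With quantile normalization 838 (8.02%, against 8.95% of all regions) were lower in liver and 91 (0.871%, against 1.18%) higher in lung.

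Brain calls were 0 without P348 and 0 without P350, and 1 higher and 0 lower with tissue means as the unit. The difference in peak bases between pair and 1-gene members, not called in any of these, was -0.000636 when peaks within 500 bp were merged and ranged from -0.000568 to 0.00205 without 1 animal. The brain difference in median fold ranged from -0.12 to 0.00966 without 1 animal. The animal as a replicate block gave 6196 varying members (59.3%, against 66.6% of all regions) and moved no count beyond the limit for a change. It changed none of the calls of the 16 named tissue differences. For single tissues, leaving out an animal leaves no residual spread, so the 16 named differences have values without a test there, 0.61 to 2.07, whose sign the choice of these members fixes. With the length-weighted fold BRWD1 fell from 1.17 to 0.26 (limma adjusted p = 0.102) and TSC22D3 from 0.92 to 0.38 (0.0732), and both calls were lost. RTN4 stayed near its size without centring, 0.78 after 0.83, and lost its call (limma adjusted p = 0.0747). Of the 16, 1 was covered by a region called in all tissues at q-values under 0.0001. It was the mitochondrial region near ND1 (log2 difference 1.09), so no nuclear one could be checked at that limit.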

Other observations

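The share of protein-coding genes with a member differed between chromosomes. It was 72.1% of 402 genes on chromosome 10 and 69.3% of 1610 on chromosome 1, and 44.8% of 1121 on chromosome 12, 41.9% of 762 on X and 11.0% of 73 on Y, in 2 castrated males. No test was run.

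Some broadly used genes had no member. UBE2A and TAF15 had a region within 2 kb of a TSS that was open in 0 tissues by the rule of both animals, and CCT7 and SRSF7 had one open in 1 tissue. UBE2D3 had no peak within 2 kb of its annotated TSSs in any library. More often 1 tissue was missing, as for RPL4, RPL6, RPS4X, MED12, SF3B3 and NDUFA1, whose best regions were open in 7 tissues. More than 1 member lay near 578 genes (5.10% of 11338), and 56 genes had at least 3.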
